A study of Rattus norvegicus with 12 samples.

Results

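The 84 genes described here encode the nuclear subunits of the mitochondrial respiratory chain and of ATP synthase, with the assembly factors of complex I and the inhibitor of ATP synthase that share their names. They were chosen by symbol alone: every probe set whose single annotated symbol begins with Nduf, Uqcr or Atp5, is one of Sdha to Sdhd, or falls in the Cox4 to Cox8 families, leaving out the muscle and brown fat isoforms Cox7a1 and Cox8b. This gave 94 probe sets of 84 genes, among 31042 probe sets and 14217 singly named genes in the table. Each gene is represented by its probe set of highest mean signal. By complex there were 34 genes of complex I and 6 of its assembly factors, 4 of complex II, 7 of complex III, 17 of complex IV, among them Cox6c-ps1, which its symbol marks as a pseudogene of Cox6c, and 16 of complex V. A filter on dim probe sets kept 81 of them for testing. The 3 left out, Cox6a2, Cox6b2 and Cox7b2, are complex IV isoforms best known from muscle, testis or sperm, and their mean signal did not exceed 106 in any group. Cox7a2 and the subunits encoded by mitochondrial DNA were not analysed here.

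The kidneys came from male Zucker rats, 12 in all, of which 6 were lean and 6 obese. In each body type 3 rats received plain ground chow (the control diet) and 3 received ground chow containing rosiglitazone, at 3 mg/kg of body weight, over 12 weeks. Each rat gave 1 Affymetrix array. Zucker obesity is known as a recessive defect of the leptin receptor, present from birth in every cell, and rosiglitazone is an agonist of the nuclear receptor PPARgamma. The labels give neither the rats' age nor the part of the kidney that was taken. In such bulk tissue, fewer cells of a type and less RNA per cell cannot be told apart.

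Complexes I and II pass electrons from NADH and succinate to ubiquinone, complex III passes them on to cytochrome c, and complex IV hands them to oxygen. The proton gradient that complexes I, III and IV build drives complex V, the ATP synthase, whose F1 head makes ATP while a ring in the membrane turns. The proximal tubule and thick ascending limb, which reabsorb most of the filtered sodium, are among the most mitochondria-rich cells of the body. Most subunits are nuclear genes, and the transcription factors NRF-1 and GABP (also called NRF-2) are known to bind many of their promoters.

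The promoters of 4 of the genes whose signal was lower in obese kidneys are shown. Ndufb3 and Atp5mpl had the smallest p among those called lower below, and Cox5b and Ndufa6 are the called genes that hold both motif cores. Windows with only 1 kind of core are not among them. Each runs from 250 bases before to 50 bases after the start given by RefSeq on the GRCr8 assembly, 5′ to 3′ along the gene. Capitals mark the letters GCGCATG, a core of the NRF-1 motif, and CCGGAAG, a core of the GABP motif, found on either strand.
Cox5b (chr9:46417587-46417886, plus strand): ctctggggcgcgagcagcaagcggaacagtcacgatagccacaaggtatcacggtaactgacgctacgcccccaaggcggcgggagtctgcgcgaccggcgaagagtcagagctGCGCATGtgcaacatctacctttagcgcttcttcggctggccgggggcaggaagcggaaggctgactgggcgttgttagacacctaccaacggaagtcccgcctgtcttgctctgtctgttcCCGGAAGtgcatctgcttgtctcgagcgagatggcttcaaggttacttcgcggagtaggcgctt
Ndufa6 (chr7:115750268-115750567, minus strand): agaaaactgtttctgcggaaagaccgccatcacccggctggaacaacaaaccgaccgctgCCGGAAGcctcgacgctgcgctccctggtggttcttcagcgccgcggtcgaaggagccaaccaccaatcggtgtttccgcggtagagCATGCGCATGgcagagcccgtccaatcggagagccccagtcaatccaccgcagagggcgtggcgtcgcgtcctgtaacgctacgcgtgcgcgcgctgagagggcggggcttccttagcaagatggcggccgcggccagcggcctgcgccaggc
Ndufb3 (chr9:67623167-67623466, plus strand): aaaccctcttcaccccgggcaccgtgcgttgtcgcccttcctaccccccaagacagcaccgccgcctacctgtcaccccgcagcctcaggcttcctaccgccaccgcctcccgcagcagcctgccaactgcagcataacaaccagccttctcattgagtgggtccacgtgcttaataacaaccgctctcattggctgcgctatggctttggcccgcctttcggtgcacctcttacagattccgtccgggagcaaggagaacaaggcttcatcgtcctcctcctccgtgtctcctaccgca
Atp5mpl (chr6:136845591-136845890, minus strand): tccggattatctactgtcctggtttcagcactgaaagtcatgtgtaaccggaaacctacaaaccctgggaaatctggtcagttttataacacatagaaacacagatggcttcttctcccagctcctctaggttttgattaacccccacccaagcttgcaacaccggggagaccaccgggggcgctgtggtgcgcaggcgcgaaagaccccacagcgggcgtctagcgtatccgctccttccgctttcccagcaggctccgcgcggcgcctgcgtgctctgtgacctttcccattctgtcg
Cox5b holds 1 core of each kind. Ndufa6 holds 1 GABP core and 2 NRF-1 cores, on opposite strands and overlapping. Ndufb3 and Atp5mpl hold neither.

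Windows were found for 76 of the 84 genes. The NRF-1 core was in 12 of the 76 (15.8%) and in 3.77% of all 33469 promoters in the RefSeq table. Those 33469 were not merged by gene, whereas only the first listed window was taken for each of the 76. The GABP core was in 22 of the 76 (28.9%), against 8.75% of all promoters, and both cores were in 5 (6.58%), against 0.633%. Among the 15 promoters of genes called between obese and lean rats below, 3 held the NRF-1 core, 5 the GABP core and 2 both. These are letter matches, not shown binding sites.

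The tissue carried kidney markers at high signal. The proximal tubule receptor Lrp2 averaged between 8746 and 11820 by group, and the thick ascending limb gene Umod between 16981 and 20885. The 12 arrays also differed in a way that the groups do not explain. The spiked-in hybridization control cre had a signal of 14654 to 15722 on 5 arrays and 10245 to 12164 on the other 7. The higher class held 2 lean control, 2 lean rosiglitazone and 1 obese control array and 0 obese rosiglitazone arrays. No label names a batch. The signals as deposited also had a wider upper end in the higher class, with a 99th percentile of 7561 to 8231, against 6842 to 7342.

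Many of the subunit genes had signals of that size, and their level moved with the class. For each array the deviation was taken as the median, over the 81 genes, of the array's log2 signal minus the gene's mean over all arrays. It lay between 0.03 and 0.18 on the 5 arrays of higher cre signal and between -0.12 and -0.01 on the other 7, without overlap. By group it was -0.01, 0.03 and 0.11 in lean control, -0.03, 0.08 and 0.18 in lean rosiglitazone, -0.12, -0.04 and 0.05 in obese control, and -0.11, -0.08 and -0.04 in obese rosiglitazone rats. On rosiglitazone every lean array thus lay above every obese array, while on control chow the body types overlapped. After quantile normalization, which gives all arrays the same distribution, the deviations shrank to between -0.07 and 0.04 in the higher class and between -0.04 and 0.03 in the lower.

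**Figure D1:**
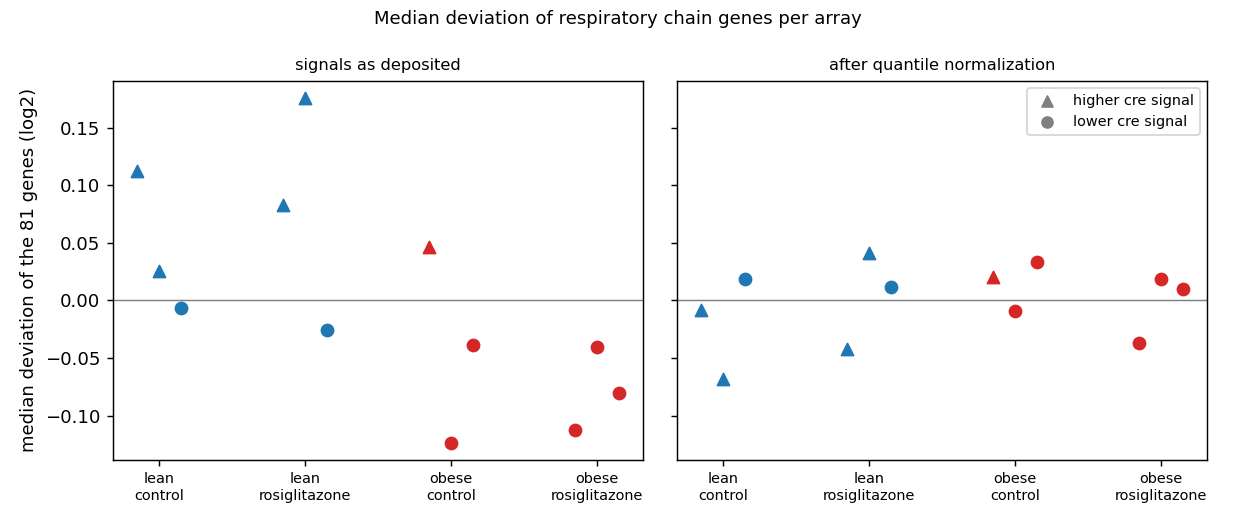
Median log2 deviation of the 81 tested genes on each array, by group, from the signals as deposited (left) and after quantile normalization (right). Blue points are lean and red points obese rats, triangles the 5 arrays of higher cre signal and circles the 7 of lower. On the left all triangles lie at or above 0.03 and all circles at or below -0.01, and on the right the classes overlap.

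Between obese and lean rats, averaged over both diets, 14 of the 81 genes fell in obese kidneys and 2 rose, at an adjusted p under 0.05 in the limma fit over 18625 probe sets. Over all probe sets 6.62% were called lower and 7.69% higher, 14.3% in all. The 14 that fell were 7 complex I subunits (Ndufb3, Ndufv2, Ndufs8, Ndufb9, Ndufc1, Ndufa6 and Ndufa1), the complex I assembly factor Ndufaf3, 2 complex IV subunits (Cox4i1 and Cox5b) and 4 complex V subunits (Atp5mpl, Atp5mc3, Atp5f1b and Atp5f1d). They fell by between 0.22 and 0.33 on the log2 scale. The 2 that rose were the ATP synthase inhibitor Atp5if1 and the complex I assembly factor Ndufaf4. No gene of complex II or III was called. On each diet 11 genes were lower in every obese rat than in every lean rat (4.45% of all probe sets) and 1 was higher (5.5%).

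Counting direction alone, 67 of the 81 (82.7%) were lower in obese rats, against 45.3% of all probe sets, with a median difference of -0.12 against 0.03. That direction depended on the scaling of the arrays: with quantile normalization 36 of 81 were lower and the median was 0.01. With each array centred on its own median 69 were lower and the median was -0.14. With the cre class as a covariate 57 were lower and the median was -0.04. Calls numbered 4 (all lower) under median centring, where 10.2% of all probe sets were called, 7 (3 lower, 4 higher) under quantile normalization, where 13.9% were, and 10 (9 lower, 1 higher) with the class covariate, where 10.7% were. Ndufb3 and Atp5mpl passed under each of these and as deposited. Within the 7 arrays of lower cre signal, 2 genes were called, Atp5f1d lower and Atp5if1 higher, and 6.16% of all probe sets. There Ndufb3 and Atp5mpl differed by -0.26 and -0.28 and were not among the 2 called. Each lean group held 1 array in that class, so no conclusion is drawn from which genes were called there. Leaving out 1 array gave 9 calls without obese control replicate 3 and up to 21 without lean rosiglitazone replicate 3.

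**Figure D2:**
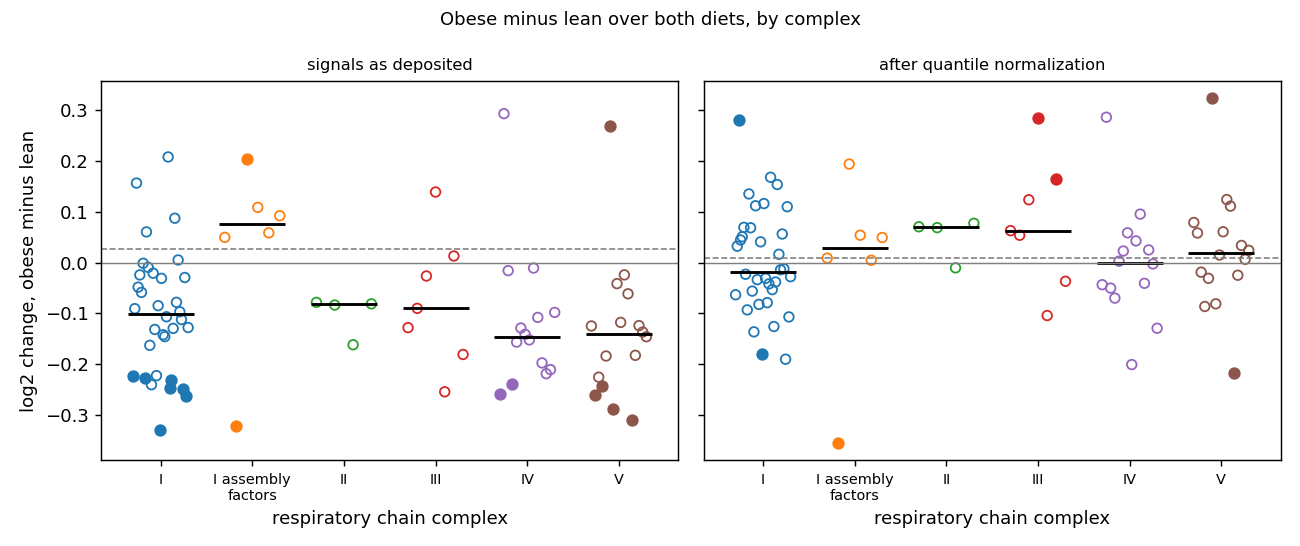
Log2 difference, obese minus lean over both diets, for each of the 81 genes by complex, from the signals as deposited (left) and after quantile normalization (right). Filled points passed the adjusted threshold, black bars are medians of each complex and the dashed line is the median of all 18625 probe sets. As deposited, the medians of complexes I to V lie between -0.15 and -0.08 and that of the assembly factors at 0.08. After quantile normalization the medians of complexes I to V lie between -0.02 and 0.07 and that of the assembly factors at 0.03.

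The diets were compared separately, in rats that share no array. On control chow 61 of 81 genes were lower in obese rats (45.7% of all probe sets), with a median of -0.08, and on rosiglitazone 70 of 81 (46.5%), with a median of -0.15. The same 57 genes (70.4%) were lower on both diets, against 30.4% of all probe sets, and 7 were higher on both. Few passed the test within 1 diet. Atp5f1d was the only one on control chow, where 4.74% of all probe sets were called, and Ndufv2, Ndufb9 and Atp5mpl were those on rosiglitazone, where 5% were called. Each of these 4 calls was lost when certain single arrays were left out, in 6 of 12 fits for Atp5f1d, Ndufv2 and Atp5mpl and in 8 for Ndufb9, with an adjusted p of at most 0.152. After quantile normalization the medians were 0.03 on control chow and -0.01 on rosiglitazone. Among the 3 lean control and 3 obese control arrays, 16 genes were lower without overlap (11.2% of all probe sets) and 6 higher (14.4%). On rosiglitazone 24 were lower without overlap (10.4%) and 3 higher (13%).

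**Figure D3:**
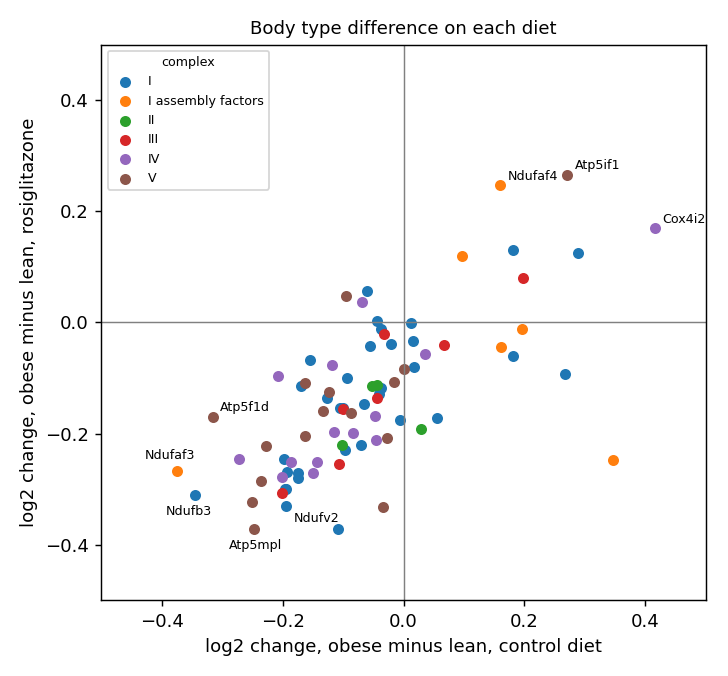
Log2 difference between obese and lean rats on control chow (horizontal) and on rosiglitazone (vertical), 1 point for each of the 81 genes, coloured by complex, from the signals as deposited. The lower left holds 57 genes and the upper right 7, among them Atp5if1, Ndufaf4 and Cox4i2, and both medians shift to near 0 after quantile normalization.

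Complex I takes electrons from NADH. Of its 34 genes, 29 were lower in obese rats over both diets, with a median of -0.10 (-0.02 after quantile normalization). The 28 accessory subunits, which surround and stabilise the catalytic core, had the same median, -0.10, as all 34, and 5 of them passed. Ndufb3, an accessory subunit of the membrane arm, was the member of smallest p. Its signal was 8577, 8203 and 7776 in lean control rats and 8542, 8108 and 7214 in lean rats on rosiglitazone. In obese rats it was 7094, 5794 and 6480 on control chow and 6751, 6781 and 5704 on rosiglitazone. On each diet every obese rat lay below every lean one. The fall was 0.33 on the log2 scale (SE 0.07, adjusted p = 0.00682), which is a signal 0.796 times that of lean rats, and 0.18 after quantile normalization (adjusted p = 0.0335).

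Ndufv2 carries an iron-sulfur cluster in the NADH-oxidising module. Its signal was 7404, 7608 and 7621 in lean control rats and 7178, 6316 and 6318 in obese control rats. On rosiglitazone it was 8076, 8428 and 7355 in lean and 5897, 6556 and 6514 in obese rats, again without overlap. Over both diets Ndufv2 fell by 0.26 (SE 0.06, adjusted p = 0.00867), and the difference after quantile normalization, -0.11, did not pass (adjusted p = 0.147). Ndufb9, a membrane arm subunit, fell by 0.25 (SE 0.05, adjusted p = 0.00755), with -0.05 after quantile normalization. Its 6 lean arrays lay between 11526 and 13658 and its 6 obese arrays between 10379 and 10995.

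Ndufs8, a core subunit with 2 iron-sulfur clusters in the arm that leads to ubiquinone, fell by 0.25 (SE 0.07, adjusted p = 0.0322). The accessory subunits Ndufc1, Ndufa6 and Ndufa1 fell by 0.22 to 0.23. Ndufc1 and Ndufa1 did not overlap between body types on either diet, and for Ndufa6 and Ndufs8 the lean and obese control arrays overlapped. None of these 4 passed after quantile normalization or with the class covariate. Single arrays left out ended the call in 8 of 12 fits for Ndufs8, in 5 for Ndufa1 and Ndufa6, and for Ndufc1 without obese control replicate 3 (adjusted p = 0.0508). Among the other core subunits, Ndufv1, which binds NADH and the flavin, differed by -0.03 (SE 0.05, adjusted p = 0.745). Ndufs1, the largest core subunit, was 3845, 3697 and 3037 in lean control rats and 4468, 4368 and 3858 in obese control rats, a difference of 0.27 (adjusted p = 0.261), and -0.09 on rosiglitazone. Ndufa9, which sits at the junction of the arms, and Ndufab1, the mitochondrial acyl carrier protein, differed by -0.16 and -0.24 over both diets and did not pass (adjusted p = 0.109 and 0.0967). The membrane arm subunit Ndufb8 differed by 0.21 (SE 0.13, adjusted p = 0.317).

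The 6 complex I assembly factors are not part of the finished enzyme. Over both diets they had a median of 0.08 (0.03 after quantile normalization), and 5 of them were higher in obese rats. By diet, 5 were higher on control chow (median 0.16), whereas 4 were lower on rosiglitazone (median -0.03). Ndufaf3, the exception over both diets, fell by 0.32 (SE 0.08, adjusted p = 0.0209). Its signal was 933, 1143 and 993 in lean control and 752, 825 and 772 in obese control rats, without overlap, and 1012, 1060 and 899 against 722, 935 and 810 on rosiglitazone, where the groups overlapped. The fall was as large after quantile normalization (0.35, adjusted p = 0.0114), and did not pass with the class covariate (adjusted p = 0.0806) or without lean control replicate 2 (adjusted p = 0.0514). Its known partner in assembly, Ndufaf4, rose by 0.20 (SE 0.06, adjusted p = 0.0491). Ndufaf4 was 1326, 1465 and 1509 in lean and 1721, 1708 and 1677 in obese rats on rosiglitazone, and 1364, 1524 and 1273 against 1592, 1507 and 1545 on control chow. The rise did not pass after median centring (0.18, adjusted p = 0.205) or quantile normalization (0.19, adjusted p = 0.0583), and passed only without lean control replicate 2 or lean rosiglitazone replicate 3 among the 12 fits that left out 1 array.

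Complex II is the only enzyme shared by the respiratory chain and the citrate cycle. All 4 of its genes were lower in obese rats over both diets, by less than any called gene. The catalytic subunits Sdha and Sdhb each differed by -0.08, and the membrane anchors Sdhc and Sdhd by -0.16 and -0.08. Sdhc came closest to the threshold (SE 0.06, adjusted p = 0.0924). After quantile normalization the median of the 4 turned to 0.07.

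Complex III had 5 of 7 genes lower, with a median of -0.09 that turned to 0.06 after quantile normalization. Uqcrfs1, the Rieske iron-sulfur protein that takes electrons from ubiquinol, was 10235, 8947 and 8717 in lean control and 8698, 7995 and 7555 in obese control rats. On rosiglitazone it was 10139, 10208 and 8196 against 6457, 8734 and 7929, with overlap. The difference over both diets was -0.25 (SE 0.08, adjusted p = 0.0579). The core proteins, which hold no redox centre, differed by -0.03 for Uqcrc1 and 0.14 for Uqcrc2. Uqcr10, a small accessory subunit, differed by -0.13 (SE 0.06, adjusted p = 0.213). Uqcrc2 passed as higher after quantile normalization (0.28, adjusted p = 0.0244), as did Uqcrh (0.16, adjusted p = 0.0129) and the complex I subunit Ndufa12 (0.28, adjusted p = 0.00209).

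Complex IV had 13 of 14 tested genes lower, with a median of -0.15 (0.00 after quantile normalization). Cox4i1, the ubiquitous isoform of a regulatory subunit, was 16216, 14095 and 13417 in lean control and 12907, 11757 and 11481 in obese control rats. On rosiglitazone it was 14755, 15623 and 12753 in lean and 12194, 12285 and 11760 in obese rats. The body types did not overlap on either diet, and Cox4i1 fell by 0.26 (SE 0.07, adjusted p = 0.0176). Cox5b, a zinc-binding subunit on the matrix side, fell by 0.24 (SE 0.06, adjusted p = 0.0141), also without overlap on either diet. Without obese control replicate 3 Cox4i1 missed the threshold (adjusted p = 0.0519). After quantile normalization both were near 0, at -0.04 and -0.07 (adjusted p = 0.515 and 0.401). Cox8a, Cox6a1, Cox6c, Cox6b1 and Ndufa4, a subunit first assigned to complex I and counted here with complex IV, differed by between -0.22 and -0.13 and did not pass, the nearest being Cox8a (adjusted p = 0.0533). Cox5a, another matrix-side subunit, differed by -0.02 (adjusted p = 0.911). Cox7a2l, a factor that joins complexes III and IV, differed by -0.01. The pseudogene Cox6c-ps1, counted among the 14, differed by -0.15 (adjusted p = 0.42), and its probe set may share signal with Cox6c.

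The alternative isoforms of complex IV were dim. Cox4i2, the oxygen-responsive isoform best known from lung, was 153, 145 and 126 in lean control and 185, 190 and 206 in obese control rats, without overlap, a difference of 0.42 (SE 0.19, adjusted p = 0.245). On rosiglitazone it was 163, 144 and 166 against 173, 154 and 217, which overlapped. Over both diets Cox4i2 was the only complex IV gene on the higher side, at 0.29 (adjusted p = 0.164). Ndufa4l2, the hypoxia-induced relative of Ndufa4, spread from 176 to 371 over the 12 arrays and differed by -0.10 (adjusted p = 0.794).

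Complex V makes ATP. Of its 16 genes 15 were lower in obese rats, with a median of -0.14 (0.02 after quantile normalization). Over both diets as deposited, the 5 subunits of the catalytic F1 head and its central stalk had the lowest median, -0.23. The 4 of the peripheral stalk followed at -0.14 and the 6 membrane subunits at -0.09. In the same order the medians were -0.23, -0.13 and -0.06 on control chow. On rosiglitazone they were -0.20, -0.14 and -0.16, so the order of the last 2 did not hold on each diet. Atp5f1d, the delta subunit of the central stalk, was 7776, 7534 and 8593 in lean control and 6620, 6031 and 6536 in obese control rats, without overlap. It fell by 0.32 on control chow (SE 0.08, adjusted p = 0.0333). On rosiglitazone it was 7608, 7752 and 7123 against 6831, 6698 and 6442, a difference of -0.17 (adjusted p = 0.242), and over both diets it fell by 0.24 (SE 0.06, adjusted p = 0.00954). The catalytic beta subunit Atp5f1b fell by 0.26 (SE 0.06, adjusted p = 0.0129) as deposited and turned to 0.06 after quantile normalization (adjusted p = 0.309). Its partner in the catalytic ring, Atp5f1a, differed by -0.12 (adjusted p = 0.187), and Atp5po, the peripheral stalk subunit that confers oligomycin sensitivity, by -0.15 (adjusted p = 0.126).

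Atp5mpl, a small membrane subunit of the synthase, was 5122, 4882 and 4988 in lean control and 4741, 3849 and 4083 in obese control rats. On rosiglitazone it was 5058, 5618 and 4553 in lean and 3886, 4020 and 3810 in obese rats, again with no overlap. It fell by 0.31 over both diets (SE 0.07, adjusted p = 0.00722), by 0.37 on rosiglitazone (SE 0.09, adjusted p = 0.0377), and by 0.22 over both diets after quantile normalization (adjusted p = 0.0108). Atp5mc3, which encodes the c subunit of the rotating ring, fell by 0.29 (SE 0.06, adjusted p = 0.00926). The difference for Atp5mc3 after quantile normalization was -0.08 (adjusted p = 0.107).

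Atp5if1 binds the F1 head and blocks ATP hydrolysis when the gradient collapses. It was higher in obese rats under each scaling tried, while the F1 subunits it acts on were lower as deposited. Its signal was 2642, 2690 and 2248 in lean control rats and 2575, 2818 and 2072 in lean rats on rosiglitazone. In obese rats it was 3327, 2969 and 2851 on control chow and 2860, 3140 and 2921 on rosiglitazone, so that every obese rat lay above every lean one. It rose by 0.27 (SE 0.08, adjusted p = 0.0402). The call held in 2 of 12 fits that left out 1 array, without lean control replicate 2 or lean rosiglitazone replicate 2, and the highest adjusted p was 0.0919. With the class as a covariate the rise of Atp5if1 was 0.40 (adjusted p = 0.00151), and after quantile normalization 0.32 (adjusted p = 0.00536). After median centring it was 0.24 (adjusted p = 0.188). Within the 7 arrays of lower cre signal the rise was 0.44, with 1 lean array on each diet. Those 2 lean arrays, at 2248 and 2072, had the lowest Atp5if1 signals of the 12. A second Atp5if1 probe set, with a mean signal of 258, differed by -0.03 (adjusted p = 0.926). For 7 genes with at least 2 tested probe sets, the signs of the difference over both diets were the same in 2, Sdhd and Uqcrc2.

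**Figure D4:**
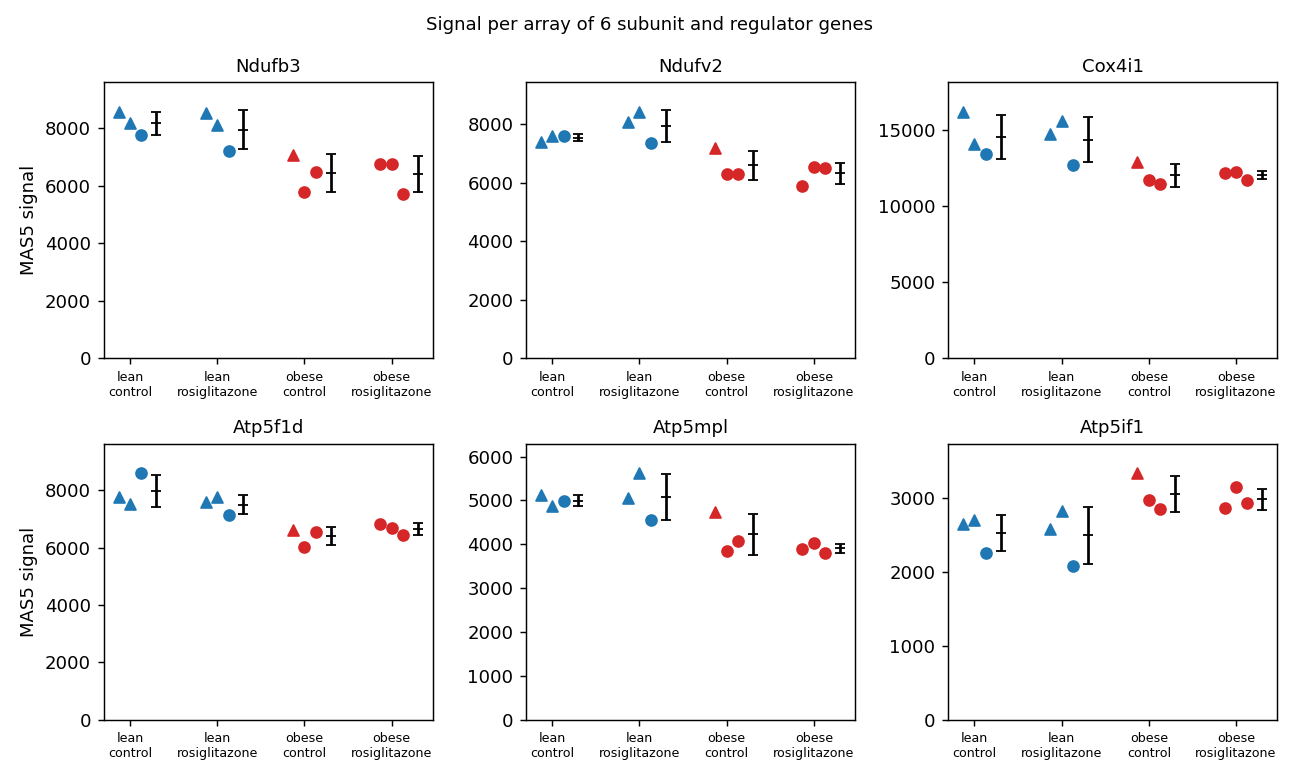
Signal on each array for 6 of the called genes, by group, with the group mean and SD beside the points (n = 3). Blue points are lean and red points obese rats, triangles arrays of higher cre signal and circles of lower. Ndufb3, Ndufv2, Cox4i1, Atp5f1d and Atp5mpl lie lower in obese rats on each diet and Atp5if1 higher, with Atp5if1 between 2072 and 2818 in lean and between 2851 and 3327 in obese rats.

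Markers of several kidney cell types moved with body type too. Of 5 proximal tubule markers fixed in the lists, all were called over both diets, 4 lower and 1 higher. Their summed signal was 31915 to 36956 in lean control, 31392 to 34777 in lean rosiglitazone, 26537 to 29459 in obese control and 23308 to 25637 in obese rosiglitazone rats, without overlap between body types. The exception was the glucose transporter Slc5a2, with lean arrays at 36.5 to 667 and obese arrays at 165 to 1704, which overlapped (adjusted p = 0.0414). The 3 thick ascending limb markers were called in both directions, with Umod lower and Kcnj1 and Slc12a1 higher, and their sums overlapped. Outside these segments, 1 of 2 distal tubule markers was called higher (Slc12a3, at 0.62). So were 2 of 5 collecting duct markers (Aqp3 and Scnn1b, at 0.71 and 0.46) and 1 of 3 podocyte markers (Wt1, at 0.59). By direction alone 2, 4 and 3 markers of these lists were higher. Over both diets 14.3% of all probe sets were called. Both red blood cell markers tested were higher, Hbb and Alas2, each at 0.75. Their summed signal was 4944 to 9735 in lean control, 2348 to 5670 in lean rosiglitazone, 5564 to 8087 in obese control and 7419 to 12733 in obese rosiglitazone rats. None of the tested leukocyte, adrenal cortex or skeletal muscle markers was called (2, 2 and 1 tested). The part of these markers and of the cre class in the subunit differences was not tested beyond the scaled and within-class values given here.

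Markers of brown fat, a tissue rich in mitochondria, also moved with body type. The uncoupling protein Ucp1 averaged 776 ± 133 (SD, n = 3) in lean control and 3109 ± 2056 in lean rosiglitazone rats, against 14.6 ± 15.8 and 144 ± 71.0 in obese rats. The 3 obese control arrays, at 32.8, 6.87 and 4.11, lay within the signals of 3 control probe sets for a bacterial trp sequence, 1.04 to 59.6, so no fold is given. Cox8b, the complex IV isoform of brown fat and muscle left out of the 84 genes, averaged 383 and 1429 in lean and 29.3 and 57.2 in obese rats, where both means lay within that range, and no fold is given. Cox7a1, the other isoform left out, differed by 0.21 (adjusted p = 0.356). Cidea, a lipid droplet protein of brown fat, averaged 635 and 1902 in lean and 287 and 424 in obese rats on control chow and rosiglitazone, and Dio2 and Elovl3, of the 7 brown fat markers, were too dim to test. The summed brown fat signal was 3169 to 4065 in lean control, 5998 to 12557 in lean rosiglitazone, 2113 to 2215 in obese control and 2343 to 2783 in obese rosiglitazone rats. Its highest value was on lean rosiglitazone replicate 2, of the higher cre class, which also had the highest deviation of the subunit genes, 0.18. In lean control rats the highest brown fat sum, 4065, was on replicate 3, with the lowest deviation there, -0.01. In each obese group the array of highest sum had the middle deviation. Of the 5 brown fat markers tested, 3 were called lower over both diets, Ucp1, Cox8b and Cidea. The other 2, Cox7a1 and Ppargc1a, lay on the higher side and were not called. All 5 white fat markers tested were lower over both diets, and 4 of them were called (Adipoq, Cfd, Fabp4 and Plin1). The summed white fat signal was 3809 to 5870 in lean control and 7510 to 12813 in lean rosiglitazone rats. It was 2465 to 3016 in obese control and 5384 to 6765 in obese rosiglitazone rats. The part of brown or white fat in the subunit differences was not tested. Without lean rosiglitazone replicate 2 the median over both diets was -0.09, and the fits that left out 1 array gave -0.14 to -0.09.

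No member passed the test between rosiglitazone and control chow. The limma fit called 0 of 81 genes in lean rats, where it called 0.00537% of all probe sets. It called 0 in obese rats (0.0698% of all) and 0 with the body types averaged (0.0591%). At an unadjusted p under 0.05 there were 2 members in lean rats (4.79% of all probe sets), 1 in obese rats (4.92%) and 3 with the body types averaged (5.08%). The median difference was 0.03 in lean and -0.04 in obese rats. In lean rats 62 of 81 genes were on the higher side and 19 on the lower (49.8% of all probe sets lower). In obese rats 60 were on the lower side (50.4%). With median centring 47 were lower in lean (median -0.01) and 54 in obese rats (median -0.02). After quantile normalization 25 were lower in lean and 51 in obese rats. Each complex stayed near 0, with medians between 0.01 and 0.05 in lean and between -0.06 and 0.03 in obese rats. In lean rats the median was 0.08 without rosiglitazone replicate 3 and -0.02 without rosiglitazone replicate 2. In obese rats it kept between -0.08 and 0.00 when any array was left out.

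**Figure D5:**
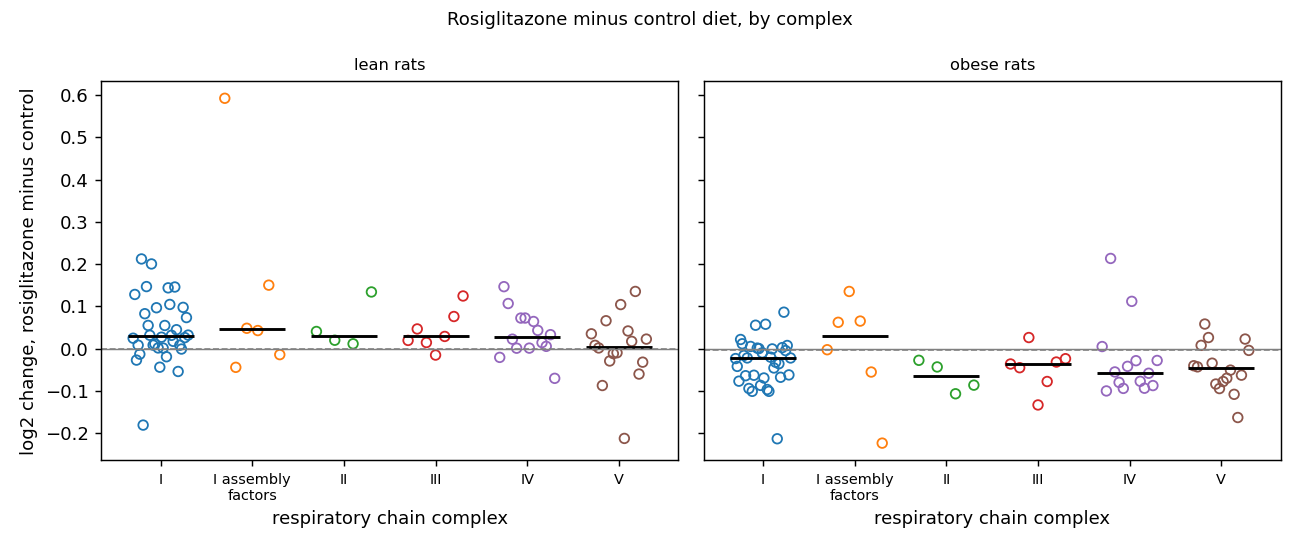
Log2 difference, rosiglitazone minus control chow, for each of the 81 genes by complex in lean rats (left) and obese rats (right), from the signals as deposited. Open points did not pass the adjusted threshold, black bars are medians of each complex and the dashed line is the median of all probe sets. No point is filled, and the point farthest from 0 is the assembly factor Ndufaf1 in lean rats, at 0.59.

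Ndufaf1, an early assembly factor of complex I, was 160, 232 and 198 in lean control rats and 298, 294 and 315 in lean rats on rosiglitazone, without overlap. The difference was 0.59 (SE 0.18, adjusted p = 0.981). In obese rats it was 235, 269 and 253 against 202, 310 and 254, with a difference of 0.00. Cox5a had the smallest p in obese rats. It was 862, 815 and 870 on control chow and 961, 962 and 1038 on rosiglitazone, a difference of 0.21 (SE 0.10, adjusted p = 0.988), and in lean rats it was 898, 924 and 852 against 880, 1051 and 959. Atp5mg, a membrane subunit of the synthase, was 7970, 7491 and 7378 against 6555, 6904 and 6259 in lean rats, a difference of -0.21 (adjusted p = 0.981). In the other complexes the smallest p in lean rats belonged to Ndufa7, Sdhd, Uqcrq and Cox5a, at 0.11 to 0.15, and in obese rats to Ndufs1, Ndufaf8, Sdhc, Uqcrc2 and Atp5pb, at -0.22 to -0.11. None of the 12 genes of smallest p had an adjusted p under 0.981.

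The difference in the drug effect between body types was called for 0 of 81 genes, as for 0% of all probe sets in the limma fit, with 1 member and 4.31% of all probe sets at an unadjusted p under 0.05. That member was Ndufaf1, at -0.59 (SE 0.26, adjusted p = 0.992). The median of the 81 was -0.08. For Atp5if1 the difference was -0.01 (SE 0.16) and for Cox4i1 0.03 (SE 0.13).

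Other genes of the chain, outside the naming rule, were taken from lists. Of 54 other respiratory chain genes, 45 were tested, and over both diets 5 fell and 2 rose in obese rats (15.6% called, against 14.3% of all probe sets), with a median of -0.06. Gpd2, the mitochondrial glycerol phosphate dehydrogenase that feeds electrons to ubiquinone, fell the most. It was 734, 674 and 432 in lean control and 299, 315 and 265 in obese control rats, and 783, 831 and 665 against 501, 435 and 452 on rosiglitazone. The body types did not overlap on either diet, and Gpd2 fell by 0.84 (SE 0.12, adjusted p = 0.000538). The electron transfer flavoprotein subunit Etfb fell by 0.26, the complex IV assembly factors Cox16 and Coa5 by 0.46 and 0.24, and the complex II assembly factor Sdhaf2 by 0.31. Coq7, which makes ubiquinone, and Cox15, which makes the heme of complex IV, rose by 0.31 and 0.35. Cytochrome c1, Cyc1, the complex III subunit whose symbol lies outside the naming rule, differed by -0.06 (adjusted p = 0.635).

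Of 20 regulators of mitochondrial biogenesis tested, 2 rose and 0 fell over both diets (10% called, against 14.3% of all probe sets), with a median of 0.03. Gabpa, the DNA-binding subunit of GABP, was 469, 434 and 518 in lean control and 627, 684 and 632 in obese control rats, and 458, 415 and 535 against 590, 651 and 545 on rosiglitazone, without overlap on either diet. It rose by 0.39 (SE 0.09, adjusted p = 0.011). The mitochondrial single-stranded DNA-binding protein Ssbp1 rose by 0.32, and the mitochondrial helicase Twnk rose by 0.52 in the comparison on rosiglitazone (adjusted p = 0.0459). The coactivator Ppargc1a differed by 0.01 (adjusted p = 0.95) and the mitochondrial transcription factor Tfam by -0.11 (adjusted p = 0.683).

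In the citrate cycle 3 of 13 tested genes fell and 0 rose (23.1% called, against 14.3% of all probe sets), with a median of -0.06. Pdha1, the catalytic subunit of pyruvate dehydrogenase, was 11221, 9492 and 9116 in lean control and 7678, 7433 and 7011 in obese control rats, and 11161, 9578 and 8827 against 7331, 7849 and 7499 on rosiglitazone. It fell by 0.40 (SE 0.07, adjusted p = 0.00181), and on each diet every obese rat lay below every lean one. Suclg2, of the GTP-forming succinyl-CoA ligase, fell by 0.28 and malate dehydrogenase Mdh2 by 0.20. None of the genes in these 3 lists was called between rosiglitazone and control chow. All values of these lists and of the cell type markers are from the signals as deposited. Their dependence on the scaling or the cre class was not tested.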

How the data were processed

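Kidney RNA of 12 rats was measured on 1 array each. The authors deposited linear signal intensities from MAS5, per the submitters' processing notes, and no source used here states their scaling target. The 2% trimmed mean of each deposited array lay between 500.12 and 500.15, so values were used without further normalization. Array number limits the precision. No arrays were identical, and nothing beyond the labels says how the rats were sampled, so p-values measure the spread between these arrays.

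Of 31042 probe sets without controls, 20826 had 1 symbol, 436 several and 9780 none here; 7 with several symbols, a member's among them, were left out. Signals were taken as log2 after adding 16. Probe sets with a mean under the 40th percentile, 7.32, were dropped, leaving 18625. Group means over all 12 arrays were fitted with limma 3.58.1 (R 4.3.3, statmod 1.5.0; 8 residual degrees of freedom; eBayes with trend and robust), with Benjamini-Hochberg adjustment over 18625 probe sets in each of 7 comparisons; a gene was called at an adjusted p under 0.05. Differences are on the log2(signal + 16) scale. The fit was also run on simulated data with independent noise for each probe set. Those data held no shift shared across an array or cre class, so they cannot test the calls against such a shift. Groups do not overlap when all arrays of 1 lie above all of the other, within each diet where both are combined. Alternatives were scaling, offset, filter, moderation, the arrays fitted, the probe sets used, the cre class, a replicate block and leaving out each array.

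Named genes are every called member, the smallest p per complex and pairwise comparison, fixed core subunits, isoforms and regulators, the brightest and dimmest of each complex, and called genes of the other lists; Ndufa12, Uqcrh, Cox6c-ps1 and the markers named beside their lists were chosen after their values were seen. Members and lists were chosen with earlier results of these data known.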

Additional observations from a re-analysis of the deposited data

How the results depend on the processing

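Offsets of 1 and 64 kept the called members of each comparison. With all probe sets of a gene the smallest adjusted p among them was used. A called gene could not lose its call there, so that setting does not test the calls. The filter at the 60th percentile kept them too and added 3 over both diets, 19 in all (16 shared), and 1 on rosiglitazone, 4 in all (3 shared). With no filter 14 were called over both diets and 2 on rosiglitazone, all among those reported. On control chow the count of called genes, 1 as reported, was 0 with median centring, plain eBayes or only the groups compared. It was 2 after quantile normalization (both higher, 0 shared) and 3 with the class covariate (1 shared). On rosiglitazone the count, 3 as reported, was 0 with median centring, plain eBayes or only the groups compared. It was 2 after quantile normalization (1 lower, 1 higher, 1 shared). With the covariate it was 1, Atp5if1, higher and not among the 3 reported. Over both diets, 16 as reported, the count was 4 with median centring and 7 after quantile normalization (4 shared). It was 8 with plain eBayes and 10 with the covariate. The median difference moved to 0.034 on control chow, -0.011 on rosiglitazone and 0.015 over both diets after quantile normalization, to -0.003 on control chow within the higher class, and on rosiglitazone to -0.069 with the covariate and -0.056 within the lower class. The median of the difference in drug effect was 0.037 within the lower class. Atp5f1b over both diets was 0.058 after quantile normalization. The cause of these moves was not tested. Leaving out 1 array gave 0 to 1 calls on control chow (median -0.13 to -0.03), 0 to 7 on rosiglitazone (median -0.20 to -0.11) and 9 to 21 over both diets (median -0.14 to -0.09), the 9 without obese control replicate 3 and the 21 and the 7 without lean rosiglitazone replicate 3. Over both diets Atp5if1 and Ndufaf4 each lost their call in 10 of 12 such fits and Ndufs8 in 8, while Ndufb3, Ndufb9, Ndufv2, Cox5b and the 4 called complex V subunits kept theirs in all 12. Drug comparisons gave 0 calls in every leave-one-out fit. With the replicate number as a block, calls were 2 on control chow, 4 on rosiglitazone and 16 over both diets (15 shared). The labels do not say whether the numbers pair rats. Correlations of deviations in same-numbered pairs ran from -0.179 to 0.182, over 0.1 in 4 of 18. Of 12 arrays 5 correlated best with their own number. These values cannot settle whether the rats were paired. The higher class holds 0 obese rosiglitazone arrays, so it gave no value for comparisons that need them. Fits within the lower class leave 1 array in each lean group, and the higher class holds 1 obese control array. The calls over both diets within the lower class are given beside those of all probe sets, and no conclusion is drawn from them. Otherwise only sizes are given within a class. Fits of only the groups compared were not run for averaged comparisons.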
